A study of Mus musculus with 28 samples.

Results

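The change of the VWF effect with time was the difference between VWF-treated and control macrophages at 16 h minus the same difference at 3.5 h. It drew on every culture of the 4 groups that define it, which were 20 of the 28 cultures in the study, and it was tested in 8660 of the 54532 genes counted. Bulk RNA sequencing had been done on mouse bone marrow-derived macrophages (BMDMs), which are macrophages grown from marrow cells with the growth factor M-CSF. The marrow came from C57/B6JB mice aged 8–12 weeks. The 4 groups were 5 PBS control cultures and 5 cultures treated with 10 µg/ml plasma-derived VWF (pd-VWF) at 3.5 h, and 5 of each at 16 h. All cultures, controls included, were in fresh medium with 1 mM CaCl2. The remaining 8 cultures received 100 ng/ml of lipopolysaccharide and were not used here. The labels call the replicates biological but do not say whether they came from separate animals, so that p-values measure only the spread between these cultures.

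VWF is a large multimeric plasma glycoprotein, known for tethering platelets to injured vessel walls, which macrophages can also bind. In activated macrophages a fast wave of NF-κB target genes encodes cytokines and chemokines together with inhibitors of the same pathway, and type I interferon made in that wave acts back on the cells through JAK-STAT signaling and interferon-stimulated genes. Slower programs alter metabolism, scavenger receptors and the cell cycle, and cultured macrophages also drift without any stimulus, which is why the control change was subtracted.

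The authors deposited read counts per gene, with totals between 41131209 and 77699206 per culture. The VWF effect at each time is given as the log2 ratio of VWF-treated to control cultures, and the change of the effect as the later log2 ratio minus the earlier one, so that a negative change means a higher ratio at 3.5 h. Expression is in CPM, reads of a gene relative to the reads of the culture in all tested genes, with TMM scaling. For the sums of cell type markers and for Xcr1, CPM are relative to all reads of the culture. A gene was called in a comparison at an adjusted p below 0.05 and an absolute log2 value above 1. Adjusted p-values are from edgeR's quasi-likelihood test with Benjamini-Hochberg adjustment over the 8660 genes, and errors of log2 values are standard errors (SE). The comparisons share cultures: the same control and treated cultures enter the effect at each time and its change.

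All 9 macrophage markers, among them Adgre1, Csf1r and Itgam, were expressed in every group, with a summed level of 10715 to 15652 CPM in controls and 13339 to 16893 CPM in VWF-treated cultures at 3.5 h. The sums at 16 h were 6676 to 18980 CPM and 21001 to 28935 CPM. None of 6 dendritic cell markers passed the expression filter, but their sum was 15.0 to 21 CPM with VWF at 3.5 h against 1.43 to 2.08 CPM in its controls. Most of it was Xcr1, at up to 17.0 CPM. Of 8 neutrophil markers 3 passed, and their sum lay between 4.70 and 38.4 CPM over all cultures. The stromal, endothelial and erythroid sum was 19.2 to 446 CPM, and the T, B and NK cell sum was at most 2.02 CPM. Replicate 5 of the 16 h controls stood apart. Its root mean square deviation from its group was 0.829 log2 units against 0.140 to 0.386 in the other 19 cultures, and 16690 genes were detected in it against 19184 to 19976 in the other 16 h controls. In it, the 562 genes with exon lengths under 1 kb deviated by a median of 0.88 and the 4276 genes over 4 kb by -0.20. Results are therefore also given without this culture, and what part it had in any result was not tested further.

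Genes were tested if they reached 10 TPM, a level scaled to gene length and library size, in any culture, and 186 of the 8660 did so only in VWF-treated cultures at 3.5 h. Such genes were bound to be higher there, and counts over gene lists are also given without these 186. In all, 825 genes reached 10 TPM in a single group, so that a high level there set their presence. Those from another group were not left out of any count. Among them were 2 of 13 complement, 3 of 32 replication and 2 of 25 mitosis genes. VWF changed 1246 genes at 3.5 h (14.4% of those tested), of which 741 rose (8.56%) and 505 fell (5.83%). The numbers at 16 h were 771 (8.90%), 414 (4.78%) and 357 (4.12%). The effect itself changed between the times in 1166 genes (13.5%), in the positive direction in 493 (5.69%) and in the negative direction in 673 (7.77%). Leaving out the deviating control gave 496 positive and 695 negative changes. Scaling by library size alone gave 610 and 569, a positive share of 51.7% against 42.3%, with a median over all genes of -0.23 at 3.5 h, -0.09 at 16 h and 0.14 for the change. No called change took the opposite sign under any other scaling, filter, test or omitted culture tried, and 952 of the 1166 stayed called when any single culture was left out.

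**Figure D1:**
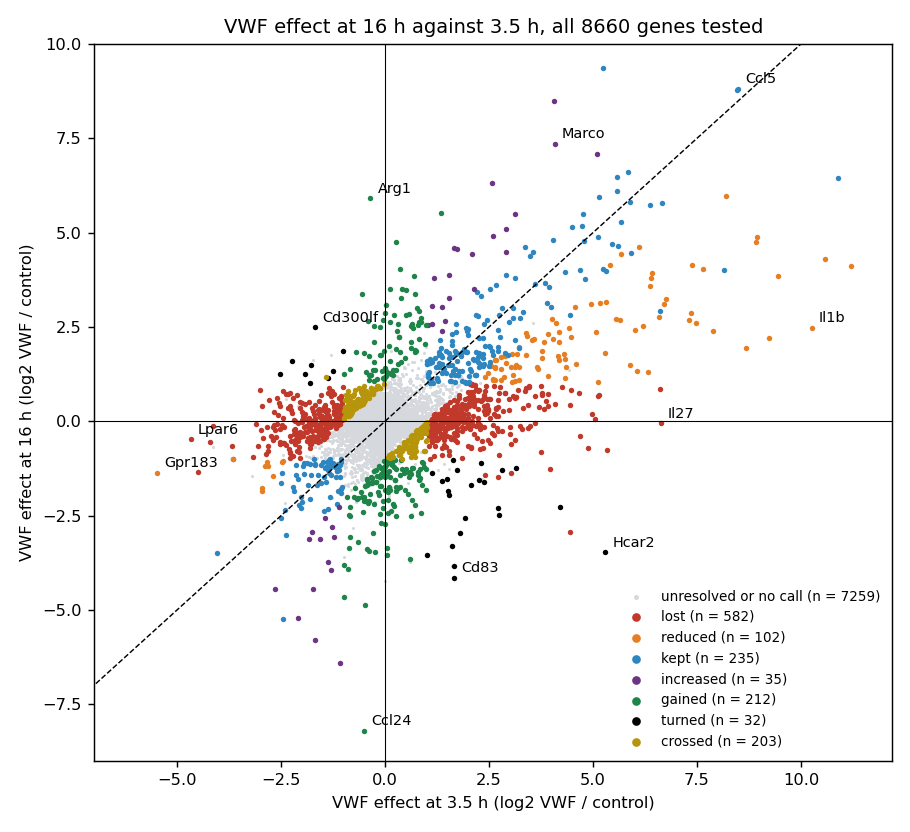
VWF effect at 16 h (vertical axis) against that at 3.5 h (horizontal axis), both as log2 VWF over control, for all 8660 genes tested. Colors give the kind of change, and on the dashed line both effects are equal. The 319 rises and 263 falls called lost lie along the horizontal axis, whereas the 212 gained lie along the vertical axis.

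Genes were sorted by which of the 3 tests called them. An effect is described as lost when it was called at 3.5 h and not at 16 h and its change toward 0 was called, and as gained in the reverse case. An effect called at both times in the same direction is reduced, increased or kept, depending on whether its change was called, and an effect called in opposite directions is turned. Crossed genes had a called change with no called effect at either time, and where the change was not called the genes called at a single time are unresolved. Of the 741 rises at 3.5 h, 319 were lost (43.0%), 92 reduced (12.4%), 167 kept (22.5%), 21 increased (2.83%), 23 turned (3.10%) and 119 unresolved (16.1%). Among the 505 falls at 3.5 h, 263 were lost (52.1%), 68 kept (13.5%) and 141 unresolved (27.9%). At 16 h, 80 rises (19.3% of 414) and 132 falls (37.0% of 357) were gained. Without replicate 5 of the 16 h controls the same class was assigned to 307 of the 319 lost rises, 146 of the 167 kept rises, 73 of the 80 gained rises and 107 of the 132 gained falls.

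A kept effect is one whose change missed the threshold, which does not show that the effects were equal. The 95% interval of the change lay within 1 log2 unit on either side of 0 for 62 of the 167 kept rises and 36 of the 68 kept falls. For the others the interval reached past 1 log2 unit.

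Most of the early rises in inflammatory cytokine genes that passed the filter were lost or reduced. Of 18 cytokine genes tested, out of 25 listed, 13 rose at 3.5 h (all genes: 8.56%). The change was called in 13, each negative, beside 13.5% of all genes in either direction. The rise was lost in 6 of them and reduced in 5, and the list's median effect went from 4.34 at 3.5 h to 0.58 at 16 h (all genes: -0.03 and -0.01). Without the deviating control 13 negative changes were counted. Of the 18 genes, 6 reached 10 TPM only in VWF-treated cultures at 3.5 h, among them Il6, Il12b and Il27, so that their presence among the tested genes was set by a high early level. Among the other 12 genes, 7 rose at 3.5 h, 8 changes were negative, and the median effect was 1.43 at 3.5 h and 0.12 at 16 h.

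Tnf, which encodes the cytokine that starts many acute inflammatory responses, had a lost rise. In controls at 3.5 h it measured 152, 155, 110, 179 and 136 CPM in replicates 1 to 5, and in VWF-treated cultures 2525, 2821, 2949, 2977 and 2617 CPM. At 16 h the controls gave 30.5, 27.5, 22.2, 32.9 and 37.3 CPM and the VWF-treated cultures 56.6, 56.6, 53.1, 60.7 and 54.1 CPM. The groups did not overlap at either time, but at 16 h the VWF-treated cultures lay below the controls of 3.5 h. The effect was 4.25 ± 0.14 at 3.5 h and 0.90 ± 0.13 at 16 h, below the fold threshold, and its change was -3.34 ± 0.18 (adjusted p = 7.0e-11). Control Tnf itself dropped by 2.28 log2 units between the times.

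Il1b encodes interleukin-1β, a fever-inducing cytokine released after inflammasome activation. It was at 0.842, 1.17, 0.967, 1.61 and 0.510 CPM in controls and at 773, 1103, 1750, 1551 and 1171 CPM with VWF at 3.5 h. At 16 h it was at 1.10, 1.83, 2.03, 7.44 and 2.37 CPM in controls and at 18.6, 16.1, 20.8, 17.3 and 9.26 CPM with VWF. All VWF-treated cultures exceeded all controls at both times. The effect went from 10.26 ± 0.57 to 2.48 ± 0.41 and was called at both, so that its rise was reduced, with a change of -7.78 ± 0.62 (adjusted p = 9.6e-09).

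Il6, encoding a cytokine that drives the acute phase response, was barely expressed at 16 h. It had 52.7, 70.1, 83.6, 141 and 70.8 CPM with VWF at 3.5 h against 0.157, 0.130, 0.0679, 0.149 and 0.186 CPM in controls. At 16 h it had 0.424, 0.372, 0.232, 0.460 and 0.184 CPM with VWF, whereas 4 of the 5 controls had 0 counts and replicate 4 had 21 counts. That culture held all counts of its group, at 0.379 CPM, so that it lowered the late effect of 2.19 ± 0.75 and set its size. The change was -7.05 ± 1.27 (adjusted p = 0.00020). Without that control it was -2.02 and was not called (adjusted p = 0.81), with the 16 h control group then at 0 counts, so that this last value depends on the prior count. Without replicate 5 of the same group the rise was lost in place of reduced.

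Other cytokine genes differed in how much was left. Il27, encoding a subunit of interleukin-27, had an effect of 6.62 ± 0.21 at 3.5 h and of -0.06 ± 0.18 at 16 h, with group means of 1.98 CPM in controls and 1.90 CPM with VWF at the later time. Rises were also lost in Il10, encoding the main anti-inflammatory interleukin (change -3.03 ± 0.29), in Il15, encoding a growth factor of natural killer cells (-4.02 ± 0.25), and in Tnfsf9, encoding the ligand of 4-1BB (-5.09 ± 0.33). Il12b, encoding the shared subunit of interleukins 12 and 23, was reduced from 11.21 ± 0.55 to 4.13 ± 0.61, although its 16 h levels were 0.0403 CPM in controls and 0.789 CPM with VWF. In the opposite sense, Il1rn, encoding the interleukin-1 receptor antagonist, and Csf1, encoding M-CSF, were gained falls, with late effects of -1.49 and -3.07.

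Chemokine genes had no single pattern, with rises that were lost, reduced, kept or turned. Of 21 tested, 17 rose at 3.5 h (all genes: 8.56%). The change was called in 13, each negative, with and without the deviating control, beside 7.77% of all genes. Of the 21, 5 passed the filter only through VWF at 3.5 h, and the other 16 had 12 early rises and 10 negative changes. Rises were lost in 5 genes, reduced in 4, kept in 6 and turned in 2. Ccl2, encoding the main monocyte attractant, had a lost rise with an effect of 1.74 ± 0.25 at 3.5 h and -0.38 ± 0.25 at 16 h.

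Ccl4, encoding a chemokine that attracts monocytes and T cells, had a turned rise. It measured 229, 290, 159, 147 and 131 CPM in controls and 2104, 3836, 4379, 4747 and 2626 CPM with VWF at 3.5 h. At 16 h the values were 106, 88.2, 74.0, 85.0 and 218 CPM in controls and 20.9, 22.5, 17.0, 23.9 and 33.3 CPM with VWF. The groups were apart at both times, with VWF-treated cultures above the controls at 3.5 h and below them at 16 h. The effect went from 4.21 ± 0.34 to -2.28 ± 0.32, and its change was -6.49 ± 0.47 (adjusted p = 2.3e-09). It was -6.14 without replicate 5 of the 16 h controls, the highest of that group. Ccl3, encoding a related chemokine, went from 2.74 ± 0.21 to -2.49 ± 0.21 in the same way.

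Ccl5, encoding a chemokine that attracts T cells and monocytes, kept its rise. In controls it measured 3.09, 3.96, 1.77, 2.58 and 1.44 CPM at 3.5 h and 2.37, 2.42, 2.20, 3.68 and 3.21 CPM at 16 h. With VWF it measured 697, 892, 1034, 1166 and 783 CPM at 3.5 h and 1139, 1419, 1363, 1584 and 728 CPM at 16 h. Each VWF-treated culture was above each control, and the treated groups of the 2 times overlapped. The effects were 8.48 and 8.81, and the 95% interval of their difference ran from -0.40 to 1.07. Kept rises were also called in Cxcl16, encoding a membrane-bound chemokine (1.95 and 2.46), and in Ccl12, encoding a monocyte attractant of mice (2.92 and 3.89). Cxcl10, encoding an interferon-induced T cell attractant, was reduced from 8.95 ± 0.49 to 4.89 ± 0.42, while its controls dropped by 3.32.

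Ccl24, encoding an eosinophil attractant, was lower only at 16 h and was the most negative gained fall. It had 16.7, 12.5, 8.27, 9.79 and 13.3 CPM in controls and 4, 1, 3, 0 and 3 counts with VWF at that time. At 3.5 h it had 1.47, 1.99, 2.99, 2.28 and 2.50 CPM in controls and 0.900, 1.26, 2.52, 2.04 and 1.23 CPM with VWF. The 16 h groups did not overlap and the 3.5 h groups did. The mean of Ccl24 reached 10 TPM only in the 16 h controls, so that a high level there set its presence among the tested genes. The change of -7.70 ± 0.56 (adjusted p = 2.6e-09) combined a control increase of 2.43 with a fall of 5.27 in VWF-treated cultures.

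**Figure D2:**
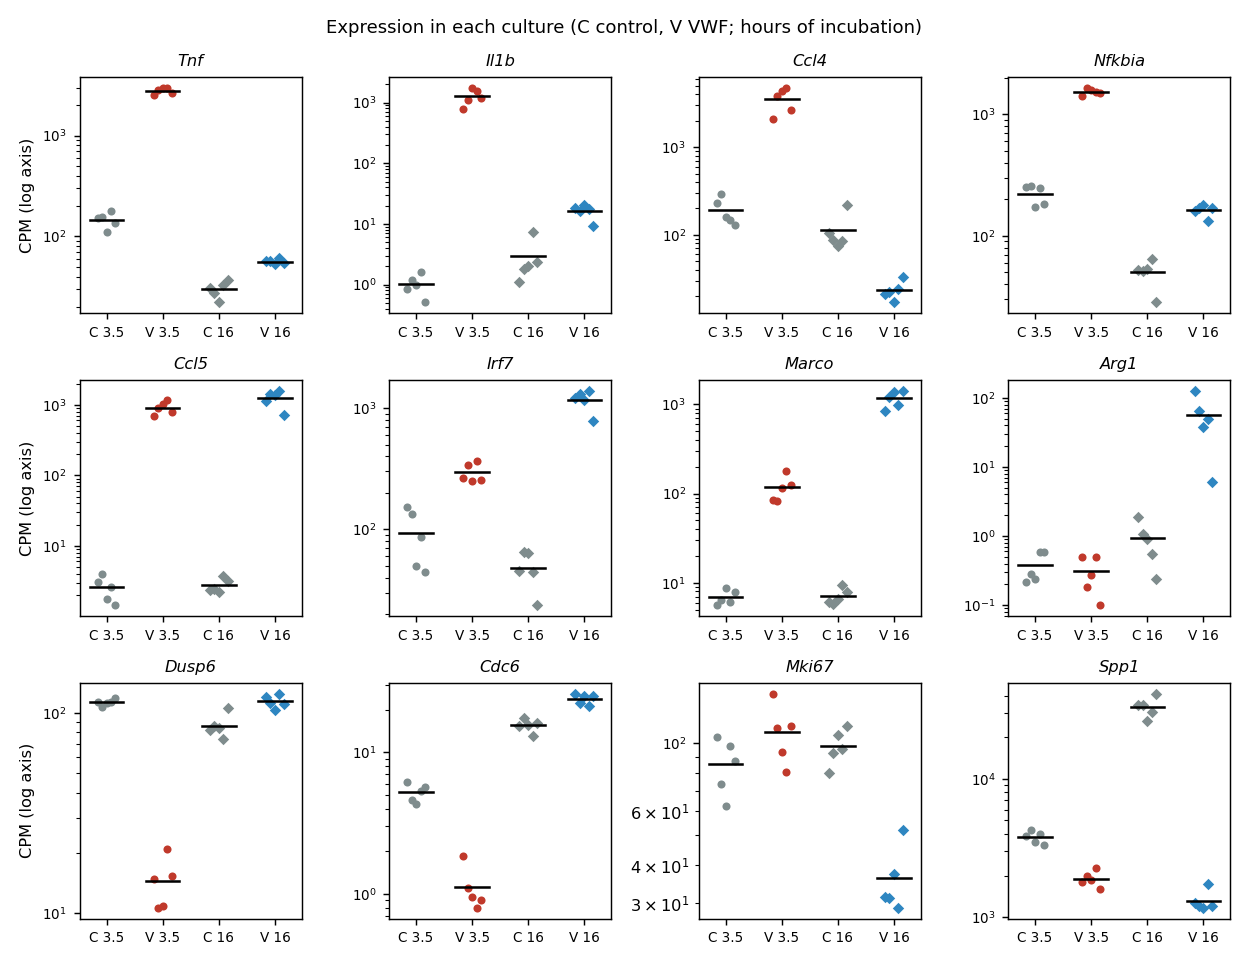
Expression in CPM on a logarithmic axis of 12 genes in each culture, with controls in grey, VWF at 3.5 h in red and VWF at 16 h in blue. Horizontal bars are means of 5 cultures. Tnf, Il1b and Nfkbia lost much of the difference from controls at 16 h, Ccl4 fell below its controls, Ccl5 stayed high, and Arg1 was above controls only at 16 h.

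The NF-κB subunits and their feedback inhibitors moved with the cytokines. Of 22 genes tested, 19 rose at 3.5 h and the change was called in 17, each negative (all genes: 8.56% and 7.77%). Of these, 10 were lost rises, 6 reduced rises and 1 a turned rise. Only Traf1 passed the filter through VWF at 3.5 h alone. The list's median effect was 2.46 at 3.5 h and 0.60 at 16 h. The activating subunits Nfkb1, Rela and Rel had effects of 2.23, 1.34 and 1.63 at 3.5 h and of -0.01, -0.17 and -1.03 at 16 h, and Rel was the turned member. Relb, the partner of p52 in the alternative pathway, kept its rise (2.07 and 1.34).

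Nfkbia encodes IκBα, the inhibitor that holds NF-κB in the cytoplasm and that NF-κB itself induces. In controls it measured 250, 257, 172, 249 and 182 CPM at 3.5 h and 52.7, 51.4, 53.6, 64.4 and 28.3 CPM at 16 h. With VWF it measured 1425, 1657, 1596, 1540 and 1501 CPM at 3.5 h and 161, 170, 181, 134 and 171 CPM at 16 h. The groups were apart at both times, and the lowest 16 h control was the deviating replicate 5. Its rise was reduced from 2.80 ± 0.18 to 1.70 ± 0.17, a change of -1.09 ± 0.23 (adjusted p = 0.0010). The change was -1.26 without that replicate, and -0.99, under the fold threshold, both without replicate 4 of the same group and with scaling by library size alone. Most other inhibitors were lost, such as Nfkbiz, encoding the atypical inhibitor IκBζ (4.67 to 0.75), and Tnfaip3, encoding the deubiquitinase A20 (2.88 to 0.76).

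Promoters of 3 of these genes are shown because each holds a κB motif within reach of the start: the inhibitor Nfkbia, reduced in its rise, and Il6 and Cxcl2, cytokine genes whose rise was reduced and lost. Sequences are from RefSeq on GRCm38.p6, 250 bases before to 50 after the gene start, 5′ to 3′ on the gene's strand. Capitals mark GGGNNTTTCC on either strand. Nfkbia lies on the minus strand at chr12:55492598-55492897, Il6 on the plus strand at chr5:30012864-30013163 and Cxcl2 on the plus strand at chr5:90903649-90903948.
Nfkbia: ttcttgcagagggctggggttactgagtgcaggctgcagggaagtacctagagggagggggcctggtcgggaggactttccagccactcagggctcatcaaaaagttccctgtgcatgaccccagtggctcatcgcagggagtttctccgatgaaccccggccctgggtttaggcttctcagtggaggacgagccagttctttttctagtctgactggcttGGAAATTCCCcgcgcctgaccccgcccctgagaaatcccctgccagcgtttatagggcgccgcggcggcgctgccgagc
Il6: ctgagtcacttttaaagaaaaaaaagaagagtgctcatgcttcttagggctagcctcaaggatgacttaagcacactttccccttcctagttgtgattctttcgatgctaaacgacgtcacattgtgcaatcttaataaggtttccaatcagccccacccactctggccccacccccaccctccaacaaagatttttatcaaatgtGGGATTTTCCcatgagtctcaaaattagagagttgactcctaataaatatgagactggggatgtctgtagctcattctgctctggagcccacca
Cxcl2: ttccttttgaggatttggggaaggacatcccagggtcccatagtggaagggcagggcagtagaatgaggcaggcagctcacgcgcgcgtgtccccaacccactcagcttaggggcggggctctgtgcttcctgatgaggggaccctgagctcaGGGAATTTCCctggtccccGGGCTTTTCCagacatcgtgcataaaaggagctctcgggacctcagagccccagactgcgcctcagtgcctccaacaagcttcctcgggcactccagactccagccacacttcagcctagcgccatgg
The motif was found in 5 of 18 promoters of the NF-κB list, in 4 of 14 chemokine promoters and in 119 of 6663 promoters of tested genes (1.79%). Among lost rises it was in 8 of 250 (3.20%) and among reduced rises in 6 of 73 (8.22%). Since only 6663 of 8660 tested genes, under 80%, were matched to a promoter, the comparison of motif shares between classes is void, and the counts are a description of the matched genes.

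The interferon program behaved unlike the cytokine program in that no rise was lost. Of 46 type I interferon response genes, each of which passed the filter in at least 2 groups, 43 rose at 3.5 h and 44 at 16 h (all genes: 8.56% and 4.78%). The rise was reduced in 16 genes, kept in 21, increased in 5 and gained in 2. The change was called in 7 genes upward and 16 downward (all genes: 5.69% and 7.77%). The list's median effect was 2.86 and 2.55, and the median change of its members was -0.59 (all genes: 0.01). Without the deviating control the change was called in 6 upward and 17 downward.

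**Figure D3:**
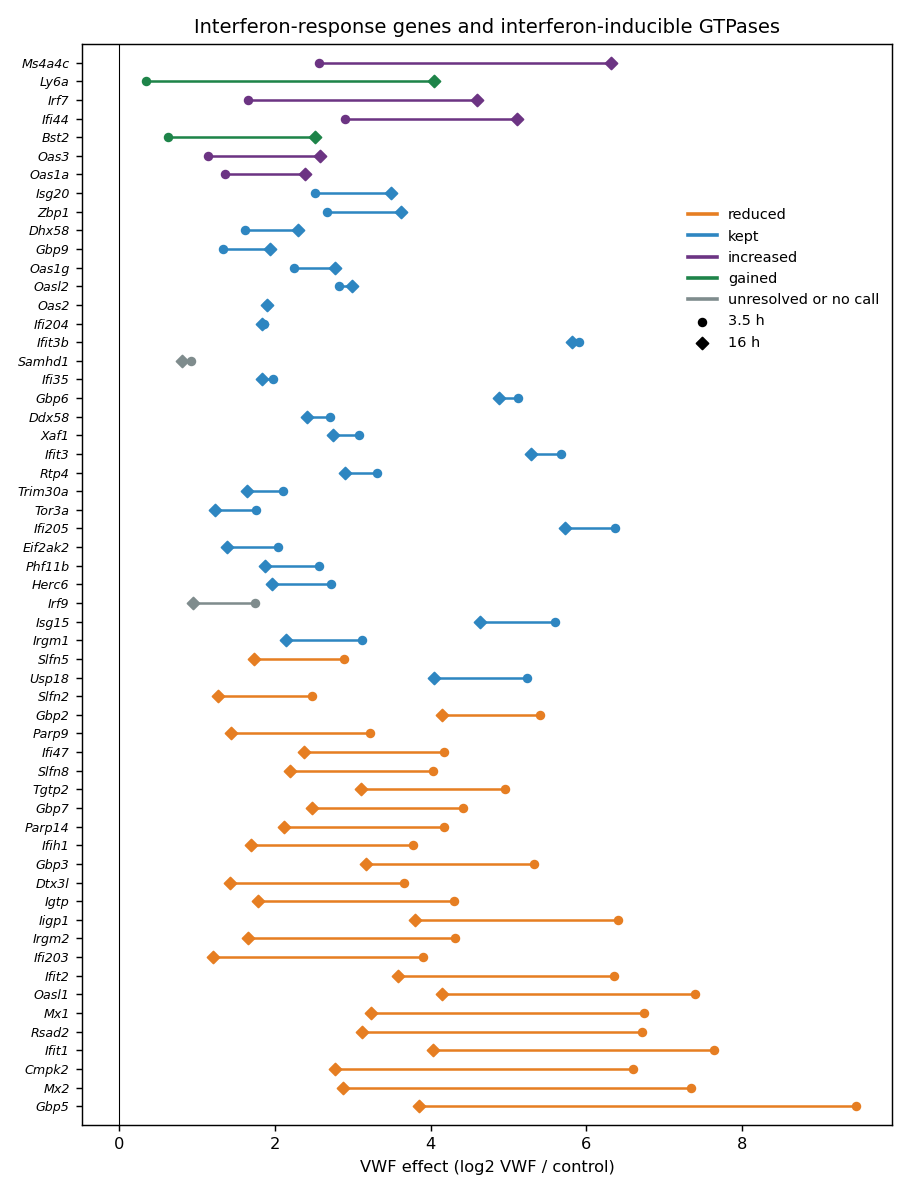
VWF effect (log2 VWF over control) of each tested interferon response gene and interferon-inducible GTPase at 3.5 h (circles) and 16 h (diamonds), ordered by the change. Line colors give the kind of change. All points lie right of 0, with Gbp5 losing most, from 9.45 to 3.85, and Ms4a4c gaining most, from 2.56 to 6.31.

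Ifit1, encoding an antiviral protein that binds foreign 5′ ends of RNA, had a reduced rise. In controls it measured 13.8, 11.0, 7.13, 13.4 and 5.19 CPM at 3.5 h and 4.34, 9.24, 12.0, 4.97 and 19.4 CPM at 16 h. With VWF it measured 1071, 1883, 2158, 3082 and 1896 CPM at 3.5 h and 170, 186, 169, 199 and 89.5 CPM at 16 h. All treated cultures were above all controls, and the treated cultures of 16 h were all below those of 3.5 h. The effect went from 7.64 ± 0.49 to 4.03 ± 0.42 (change -3.61 ± 0.54, adjusted p = 2.7e-05). Similar reductions were called in the virus-restricting GTPase genes Mx1 (6.74 to 3.24) and Mx2 (7.35 to 2.88), in Rsad2, encoding viperin (6.72 to 3.12), and in Cmpk2, encoding a mitochondrial nucleotide kinase (6.59 to 2.77).

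The neighboring family member Ifit3 kept its effect, at 5.68 and 5.29, with a 95% interval of the change from -1.30 to 0.53. Isg15, encoding a ubiquitin-like modifier, was also kept at 5.60 and 4.63, but its change of -0.97 ± 0.41 had an interval from -1.83 to -0.10. Stat2, encoding a transcription factor of the interferon response, was reduced from 3.22 to 1.96.

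Irf7, encoding the regulator that amplifies interferon production, had an increased rise. It measured 154, 135, 49.6, 87.0 and 44.5 CPM in controls and 264, 338, 252, 365 and 256 CPM with VWF at 3.5 h. At 16 h it measured 45.0, 65.1, 63.3, 44.8 and 23.7 CPM in controls and 1220, 1306, 1159, 1387 and 782 CPM with VWF. The groups were apart at both times, and each 16 h treated culture exceeded each 3.5 h treated culture. The effect grew from 1.65 ± 0.32 to 4.60 ± 0.36 (change 2.94 ± 0.45, adjusted p = 3.1e-05). Ms4a4c, of the membrane-spanning 4A family, grew from 2.56 to 6.31. The gained rises were Bst2, encoding tetherin (0.63 to 2.52), and Ly6a, encoding the surface antigen Sca-1 (0.35 to 4.04). Oas1a, encoding an oligoadenylate synthetase, had a change of 1.02 that was no longer past the fold threshold without the deviating control (0.89).

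All 11 interferon-inducible GTPase genes tested, which encode proteins that attack vacuoles of intracellular pathogens, rose at both times (all genes: 8.56% and 4.78%). The rise was reduced in 8 and kept in 3 (all genes: 1.06% and 1.93%), and the median effect was 4.96 and 3.10. Of the 11, 4 passed the filter only through VWF at 3.5 h, Gbp5 among them, and the other 7 had 5 negative changes and medians of 4.32 and 2.15. Gbp5 had the largest reduction, with group means of 1.17 CPM in controls and 826 CPM with VWF at 3.5 h, and 0.756 and 10.8 CPM at 16 h. Several of these genes have close paralogs, and how reads mapping to more than 1 place were counted is not given in the sources used here, so that values of single members are uncertain.

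Promoters of Ifit3 and Isg15, whose effect was kept, and of Ifit1, whose effect was reduced, are shown because all hold the interferon-stimulated response element close to the start. Capitals mark GAAANNGAAA on either strand, and the 3 matches in Isg15 overlap. Ifit3 lies on the plus strand at chr19:34583279-34583578, Isg15 on the minus strand at chr4:156200769-156201068 and Ifit1 on the plus strand at chr19:34640639-34640938.
Ifit3: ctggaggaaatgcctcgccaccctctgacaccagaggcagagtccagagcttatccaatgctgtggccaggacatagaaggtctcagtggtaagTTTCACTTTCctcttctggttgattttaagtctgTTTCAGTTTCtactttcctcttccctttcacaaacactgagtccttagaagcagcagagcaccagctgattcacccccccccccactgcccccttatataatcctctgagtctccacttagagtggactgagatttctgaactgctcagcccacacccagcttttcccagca
Isg15: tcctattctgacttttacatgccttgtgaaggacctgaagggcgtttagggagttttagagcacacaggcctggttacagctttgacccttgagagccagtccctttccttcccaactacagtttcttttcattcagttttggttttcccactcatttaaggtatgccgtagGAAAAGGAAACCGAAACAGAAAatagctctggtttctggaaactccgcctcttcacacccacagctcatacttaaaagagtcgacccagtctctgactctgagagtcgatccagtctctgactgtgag
Ifit1: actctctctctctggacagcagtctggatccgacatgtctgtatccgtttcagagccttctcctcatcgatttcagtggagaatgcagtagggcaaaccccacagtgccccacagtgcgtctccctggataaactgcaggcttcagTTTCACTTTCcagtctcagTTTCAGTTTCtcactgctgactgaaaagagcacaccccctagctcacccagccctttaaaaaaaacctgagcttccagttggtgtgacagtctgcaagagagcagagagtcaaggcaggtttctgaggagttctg
Of the interferon response genes and GTPases with a promoter in the table, the element was found in 10 of 15 with a kept rise, 12 of 19 with a reduced rise and 2 of 5 with an increased rise. It was in 236 of 6663 promoters of tested genes (3.54%). Over all genes it was in 22 of 126 kept rises, 20 of 73 reduced rises, 12 of 59 gained rises and 10 of 250 lost rises, a description under the same limit on matched genes. A match of letters is not a bound site.

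Of 24 JAK-STAT signaling genes tested, 12 rose at 3.5 h and 4 at 16 h (all genes: 8.56% and 4.78%). The change was called in 8, each negative (10 without the deviating control). Over all genes 7.77% had a negative change. Cish and Socs1 passed the filter only through VWF at 3.5 h, and the other 22 genes had 10 early rises and 6 negative changes. The cytokine signaling inhibitors Socs1 and Socs3 were reduced from 6.02 to 2.43 and from 7.31 to 2.67. Cish, an inhibitor of STAT5 signaling, and Stat5a itself lost rises of 3.49 and 2.59.

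Activation markers mostly followed the cytokines. Of 13 costimulatory and checkpoint genes tested, the change was called in 10 downward and 2 upward (1 upward without the deviating control), beside 7.77% and 5.69% of all genes. Cd69, Cd200 and Icosl passed the filter only through VWF at 3.5 h. Of the other 10 genes, 7 had a downward and 2 an upward change. Cd40, encoding the receptor for T cell help, was reduced from 6.06 to 1.33, and Icosl, encoding the ICOS ligand, lost a rise of 5.15. Cd86, encoding a ligand of CD28, was not called at 3.5 h (0.00) and was a gained fall of -2.71 at 16 h.

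Cd83, encoding a marker of mature antigen-presenting cells, was a turned rise. It measured 150, 198, 114, 155 and 102 CPM in controls and 455, 573, 517, 329 and 388 CPM with VWF at 3.5 h. The 16 h values were 90.8, 99.2, 97.5, 88.6 and 80.9 CPM in controls and 4.33, 3.91, 4.32, 5.58 and 7.79 CPM with VWF. The groups did not overlap at either time and their order was opposite. The effect went from 1.65 ± 0.20 to -4.14 ± 0.22 (change -5.79 ± 0.30, adjusted p = 3.8e-11).

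Cd14, encoding the co-receptor for bacterial lipopolysaccharide, turned in the same way, from 2.38 ± 0.13 to -1.61 ± 0.12. Its controls went from means of 554 to 1362 CPM, while VWF-treated cultures went from 2883 to 446 CPM. Among 22 Toll-like receptor, co-receptor and adaptor genes, 7 changes were negative and 1 positive, or 5 and 1 without the 2 genes that passed the filter only through VWF at 3.5 h. The shares over all genes were 7.77% negative and 5.69% positive. The adaptor gene Myd88 and the receptor gene Tlr3 had lost rises (2.11 to 0.60 and 2.02 to 0.49), Tlr2 was reduced (3.03 to 1.45), and Tlr13 had a lost fall (-1.46 to -0.28). Nlrp3, encoding an inflammasome sensor, lost a rise of 3.12. Of 23 apoptosis genes, 8 had lost rises, beside 3.68% of all genes. Among the 8 were the survival gene Bcl2a1d (5.06 to 0.05) and the pro-apoptotic gene Bcl2l11 (2.11 to -0.09).

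Hcar2, encoding the receptor for niacin and ketone bodies, had the most negative change of all genes that stayed called with any culture left out, and it passed the filter only through VWF at 3.5 h. It measured 1.21, 1.6, 0.900, 2.40 and 0.580 CPM in controls and 40.7, 41.4, 51.2, 64.2 and 69.1 CPM with VWF at 3.5 h. By 16 h it was at 4.33, 4.76, 3.07, 3.77 and 0.261 CPM in controls and 0.371, 0.239, 0.339, 0.0800 and 0.430 CPM with VWF. The groups were apart at 3.5 h, whereas at 16 h the deviating control lay among the treated cultures. The effect went from 5.30 ± 0.54 to -3.48 ± 0.55, and the change was -8.78 ± 0.77 (adjusted p = 3.0e-08) and -9.08 without that control.

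Oxysterol genes showed opposite early effects that were both removed or reduced. Ch25h, encoding the enzyme that makes 25-hydroxycholesterol, measured 11.6, 10.2, 8.49, 10.3 and 9.65 CPM in controls and 312, 369, 478, 535 and 335 CPM with VWF at 3.5 h. At 16 h the levels were 8.14, 7.81, 7.24, 4.37 and 6.49 CPM in controls and 5.14, 3.59, 3.89, 6.66 and 0.779 CPM with VWF, and the groups overlapped. Its change was -6.10 ± 0.48. Gpr183, encoding a receptor for oxysterols, measured 56.6, 65.0, 47.2, 47.0 and 44.8 CPM in controls and 1.20, 1.39, 1.01, 1.17 and 1.07 CPM with VWF at 3.5 h. At 16 h it measured 72.4, 83.9, 74.8, 66.4 and 43.0 CPM against 28.6, 27.0, 26.7, 25.2 and 24.4 CPM. Both pairs of groups were apart and the fall was reduced, from -5.48 ± 0.18 to -1.37 ± 0.14 (change 4.11 ± 0.22, adjusted p = 5.0e-11).

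Gained or increased VWF effects were called in genes of arginine use, scavenging and Fc receptors, and macrophage surface markers. Arg1, encoding arginase 1, which splits arginine into ornithine and urea, measured 0.215, 0.281, 0.238, 0.597 and 0.580 CPM in controls and 0.500, 0.183, 0.273, 0.497 and 0.0997 CPM with VWF at 3.5 h. The 16 h values were 1.89, 1.06, 0.891, 0.542 and 0.239 CPM in controls and 127, 63.5, 37.4, 49.4 and 5.96 CPM with VWF. The 3.5 h groups overlapped and the 16 h groups did not, although replicate 5 was the lowest in both 16 h groups. Arg1 reached 10 TPM only in VWF-treated cultures at 16 h, so that a high late level set its presence among the tested genes. The effect was -0.35 ± 0.77 and 5.90 ± 0.68, and its change of 6.26 ± 0.98 (adjusted p = 4.8e-05) was 6.01 without the deviating control. By voom with sample weights it was 6.36 and not called (adjusted p = 0.090).

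The other arginine and itaconate genes went in different directions. Of 8 tested, 2 changes were positive and 4 negative (all genes: 5.69% and 7.77%). Without Nos2, which passed the filter only through VWF at 3.5 h, 3 were negative. Among the positive changes was that of Arg1, which passed it only through VWF at 16 h. Ass1, encoding argininosuccinate synthase, which regenerates arginine, had an increased rise (2.60 to 4.91). Acod1, encoding the enzyme that makes itaconate, was reduced from 8.19 to 5.96. Nos2, encoding inducible nitric oxide synthase, had 60.5, 52.4, 36.8, 59.1 and 66.7 CPM with VWF at 3.5 h and 0.106, 0.359, 0.553, 0.360 and 0.143 CPM at 16 h. Its 16 h controls had 0 counts in 4 cultures and 4 counts in replicate 4, so that the reduction from 10.59 to 4.29 (change -6.29 ± 1.99, adjusted p = 0.019) rested on a single control. Without that control the change was not called (adjusted p = 0.91).

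Marco, encoding a scavenger receptor for bacteria and particles, had an increased rise. It measured 5.60, 6.45, 8.81, 6.06 and 7.95 CPM in controls and 85.3, 83.4, 117, 178 and 125 CPM with VWF at 3.5 h. By 16 h it was at 6.13, 5.72, 6.62, 9.36 and 7.95 CPM in controls and 850, 1219, 1392, 988 and 1426 CPM with VWF. Controls stayed level, and the 4 groups fell into 3 separate ranges. The effect grew from 4.08 ± 0.23 to 7.36 ± 0.27 (change 3.28 ± 0.30, adjusted p = 5.2e-08).

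Of 26 scavenger, Fc and efferocytosis receptor genes, 5 changes were positive and 7 negative (all genes: 5.69% and 7.77%). Fcgr1, encoding the high-affinity IgG receptor, had a gained rise (0.82 to 2.91), and Cd300lf, encoding a lipid-binding receptor, had a turned fall (-1.69 to 2.49). Mertk, encoding a receptor for apoptotic cells, had a lost fall (-2.69 to -0.51). Clec4n and Clec7a, encoding receptors for fungal sugars, were gained falls (-3.20 and -1.46 at 16 h). Msr1, encoding a scavenger receptor for modified lipoproteins, was kept at 1.73 and 1.80 with an interval of the change from -0.24 to 0.38.

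Of the 9 macrophage markers, 4 changes were positive and 1 negative, namely that of Cd14, and 3 were gained rises (all genes: 5.69%, 7.77% and 0.924%). Besides Fcgr1 these were the surface marker genes Adgre1 (F4/80) and Itgam (CD11b), at 1.82 and 1.20 at 16 h, and 68.7% of the exon length of Itgam overlaps another annotated gene. In bulk cultures fewer cells of a kind and less RNA per cell cannot be told apart. Of 13 complement genes 4 changes were positive and 1 negative (all genes: 5.69% and 7.77%). C1qa, encoding a chain of C1q, was a gained rise of 1.5. Further gained rises were Nr1h3, encoding the oxysterol receptor LXRα (0.31 to 2.58), Hmox1, encoding heme oxygenase 1 (-0.28 to 2.10), and Pla2g7, encoding an enzyme that degrades platelet-activating factor (0.09 to 2.01). Sod2, encoding mitochondrial superoxide dismutase, was kept at 3.61 and 3.63 with an interval of the change from -0.34 to 0.38.

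Genes that VWF lowered at 3.5 h included regulators of signaling and macrophage identity whose fall was then lost. Dusp6, encoding a phosphatase that switches off ERK, measured 114, 107, 112, 114 and 119 CPM in controls and 14.8, 10.6, 10.9, 21 and 15.3 CPM with VWF at 3.5 h. At 16 h the levels were 82.4, 85.8, 83.8, 73.9 and 106 CPM in controls and 119, 112, 103, 125 and 111 CPM with VWF. The groups were apart at 3.5 h and overlapped at 16 h only through the deviating control. The change was 3.36 ± 0.20 (adjusted p = 2.4e-10).

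Of 18 macrophage lineage and C/EBP factor genes, 5 had lost falls, among them Cebpa (-1.66 to -0.24) and Mef2a (-1.37 to -0.10), and 3 had lost rises, among them Tfec (2.84 to 0.27). The shares over all genes were 3.04% for lost falls and 3.68% for lost rises. Lpar6, encoding a lysophosphatidic acid receptor, had the most positive change of the lost falls (-4.67 to -0.48).

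Immediate early genes had no common direction. Of 31 tested, 6 changes were positive and 12 negative (all genes: 5.69% and 7.77%). Jun and Myc, encoding growth-related transcription factors, had lost falls (-1.83 to 0.09 and -2.22 to -0.93), and Fos had a turned fall (-1.26 to 1.33). Nr4a1, encoding an orphan nuclear receptor, had an increased fall (-2.63 to -4.45). The fall of Klf4, encoding a factor of monocyte differentiation, was kept at -1.64 and -1.70.

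Cell cycle genes separated by phase. In DNA replication and nucleotide synthesis, 10 of 32 genes had a positive change and 0 a negative one by edgeR's quasi-likelihood test, with 0 negative changes also at an unadjusted p below 0.05 and by DESeq2 or voom. These were 3 lost falls and 7 crossed genes, and 9 genes were called without the deviating control. Over all genes 5.69% had a positive and 7.77% a negative change. The list's median effect was -0.44 at 3.5 h and 0.34 at 16 h, and its median increase over time was 1.16 in controls and 1.89 in VWF-treated cultures. Cdc6, encoding a factor that loads the replicative helicase, measured 6.21, 4.61, 4.29, 5.34 and 5.66 CPM in controls and 1.86, 1.10, 0.947, 0.795 and 0.912 CPM with VWF at 3.5 h. The 16 h values were 15.3, 17.6, 15.7, 13 and 16.1 CPM in controls and 26.0, 22.5, 24.9, 21.3 and 25.1 CPM with VWF. The groups were apart in opposite order, but the late effect of 0.63 ± 0.17 did not reach the fold threshold. The change was 2.84 ± 0.25 (adjusted p = 2.9e-08).

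In mitosis, 7 of 25 genes had a negative change, and all 7 were gained falls (all genes: 7.77% and 1.52%). Lower levels with VWF were called in 15 genes at 16 h and 3 at 3.5 h (all genes: 4.12% and 5.83%), and 9 genes were unresolved. The list's median effect was already -0.54 at 3.5 h and was -1.27 at 16 h, with a median change of -0.72. Without the deviating control 7 negative changes were also counted. Mki67, encoding the proliferation marker Ki-67, measured 105, 73.7, 62.4, 98.2 and 87.4 CPM in controls and 145, 112, 93.8, 80.5 and 114 CPM with VWF at 3.5 h. By 16 h it was at 80.0, 92.7, 107, 95.4 and 114 CPM in controls and 31.5, 31.1, 37.5, 28.9 and 51.9 CPM with VWF. The groups overlapped at 3.5 h and not at 16 h, and the change was -1.79 ± 0.25 (adjusted p = 1.5e-05). Ccnb2, encoding a mitotic cyclin, changed by -1.81. Cdkn1a, encoding the cyclin-dependent kinase inhibitor p21, lost a rise of 3.43, and Ccnd1, encoding cyclin D1, lost a fall of -2.28.

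**Figure D4:**
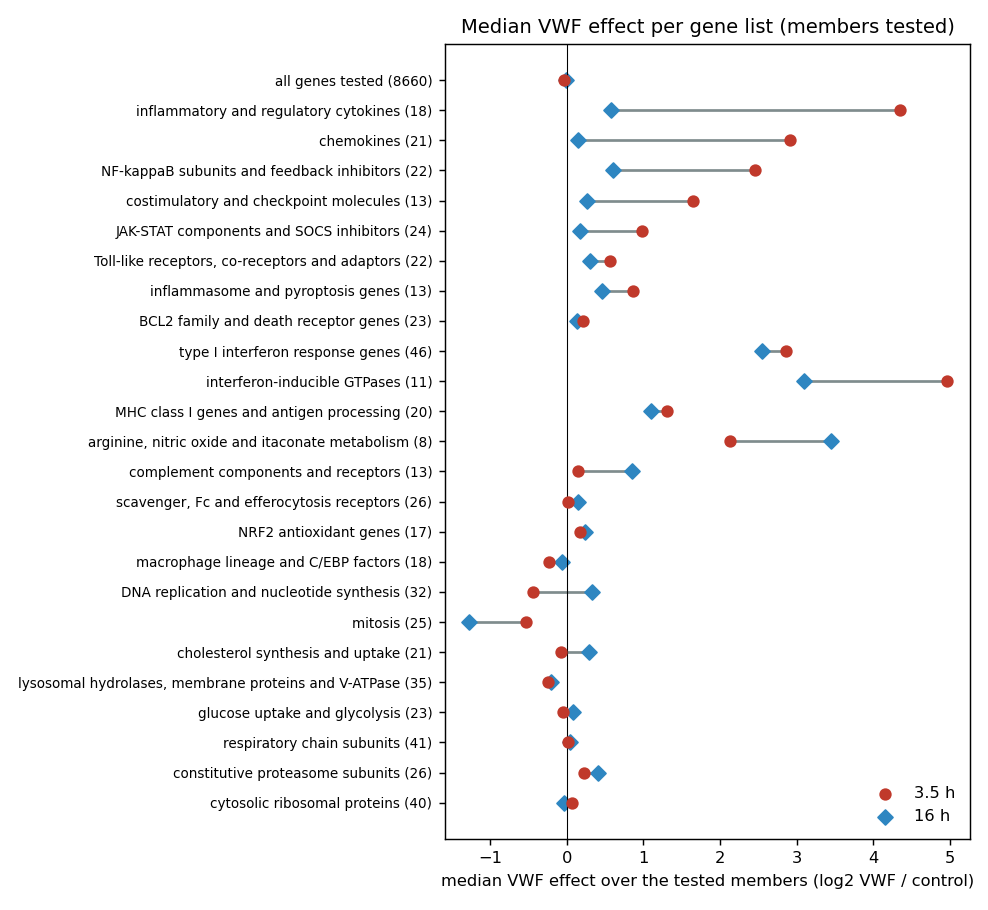
Median VWF effect (log2 VWF over control) over the tested members of each gene list at 3.5 h (red circles) and 16 h (blue diamonds), with the number of tested members in brackets. Cytokines went from 4.34 to 0.58 (1.43 to 0.12 without the 6 genes that passed the filter only through VWF at 3.5 h). Interferon response genes were at 2.86 and 2.55, with a median change of -0.59 over their members. Respiratory chain, proteasome and ribosome lists stayed within 0.5 of 0 at both times.

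Basic metabolism and protein turnover showed few calls. In 41 respiratory chain genes, 40 ribosomal protein genes, 26 proteasome genes and 7 pentose phosphate genes no change was called by edgeR's quasi-likelihood test, by DESeq2 or by voom. By edgeR's test 13.5% of all genes were called. At an unadjusted p below 0.05 by that test there were 4, 0, 7 and 0 such genes, beside 3522 of all 8660. Of 28 tricarboxylic acid cycle genes only Pdp1, encoding the phosphatase that activates pyruvate dehydrogenase, was called (1.55), beside the same 13.5% of all genes. Of 23 glycolysis genes 2 changes were called, both negative, beside 7.77% of all genes. They were the lost rise of the transporter gene Slc2a6 (4.99 to 0.20) and the gained fall of Pfkp, encoding a phosphofructokinase (-1.57 at 16 h). Hk2, encoding hexokinase 2, kept a rise at 1.05 and 1.31 with an interval of the change from -0.45 to 0.97. The other metabolic genes that the study names, Hk3, Idh1, Idh2, Slc2a1 and Hif1a, had changes of 0.30, -0.02, 0.53, -0.65 and -0.41 and were not called. Neither were Lrp1, encoding a lipoprotein receptor (0.32), nor Mrc1, encoding the mannose receptor (-0.84). Cd38, encoding an NAD-consuming surface enzyme, had an increased rise, with a change of 1.58 ± 0.48 (adjusted p = 0.014), which was 1.30 and not called by voom with sample weights (adjusted p = 0.13).

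Subtracting the control drift altered which time changes were attributed to treatment. In VWF-treated cultures 1788 genes (20.6%) changed between 3.5 h and 16 h, and in controls 872 (10.1%). Of those in VWF-treated cultures, 826 also had a called change of the VWF effect in the same direction, 301 up and 525 down. Another 353 changed in both treated and control cultures with no called change of the effect, 175 up and 178 down. The remaining 609 met neither condition. For 331 genes the effect changed although VWF-treated cultures had no called change in time. Without replicate 5 of the 16 h controls, 731 genes changed in controls, and the shared set and the set with no change in treated cultures held 297 and 313 genes.

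**Figure D5:**
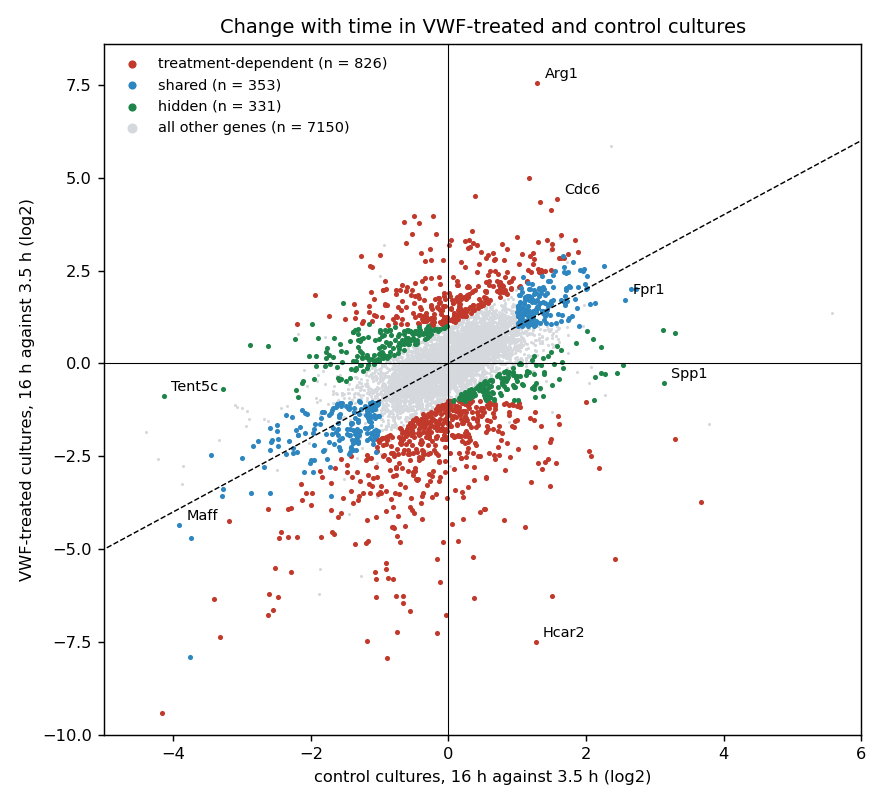
Change from 3.5 h to 16 h in VWF-treated cultures (vertical axis, log2) against that in controls (horizontal axis, log2) for all 8660 genes. Red genes changed with VWF and differed from controls (826), blue genes changed in both (353), and green genes differed although VWF-treated cultures had no called change (331, labelled hidden). On the dashed line both changes are equal, and Maff lies close to it, whereas Spp1 changed by 3.13 in controls and by -0.53, under the fold threshold, with VWF.

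Maff, encoding a small MAF transcription factor, dropped over time in both treated and control cultures. It measured 94.7, 128, 95, 103 and 86.2 CPM in controls and 120, 119, 125, 95.8 and 112 CPM with VWF at 3.5 h. At 16 h the levels were 9.80, 8.15, 5.14, 6.79 and 3.63 CPM in controls and 7.58, 6.08, 5.30, 4.58 and 4.22 CPM with VWF. The treated and control groups overlapped at each time, and it fell by 3.91 and 4.36 with a difference of -0.45 ± 0.29 (adjusted p = 0.28).

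Spp1, encoding the matrix and cytokine protein osteopontin, was the reverse case. It measured 3851, 4273, 3478, 4025 and 3333 CPM in controls and 1803, 1987, 1846, 2271 and 1603 CPM with VWF at 3.5 h. At 16 h it measured 33961, 34243, 26333, 30297 and 41298 CPM in controls and 1265, 1197, 1163, 1746 and 1200 CPM with VWF. The treated cultures lay below the controls at both times. Controls rose by 3.13 ± 0.15 whereas the VWF-treated cultures changed by -0.53 ± 0.14, past the adjusted p (0.0021) and not the fold threshold, and the effect changed by -3.66 ± 0.20 (adjusted p = 5.2e-11). Tent5c, encoding a cytoplasmic poly(A) polymerase, was a case in the other direction, with a control drop of 4.14 and effects of -1.78 and 1.48.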

How the data were processed

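RNA of the cultures was sequenced as paired-end reads, and the authors aligned them with STAR to GRCm38 (mm10) and deposited whole-number read counts per gene. For the annotation, the strand setting and multi-mapped reads, no setting was given in the sources used here. Library totals ran from 41131209 to 77699206. Groups came from the sample labels, and no replicates agreed within sampling noise.

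Of 54532 genes, 28918 had a count in the 20 cultures, and the 8660 that reached 10 TPM in at least 1 culture, computed from annotated exon lengths, were tested. The counts were fitted with edgeR 4.0.16 (R 4.3.3; TMM factors, robust quasi-likelihood test) with 1 mean per group, and p-values were adjusted by Benjamini-Hochberg over all genes tested. Calls needed an adjusted p below 0.05 and an absolute log2 value above 1. The procedure was tested on simulated data. Alternatives were DESeq2 1.42.0, limma 3.58.1 voom with sample weights, other scalings, filters and thresholds, all 28 cultures in 1 fit, a replicate block, and leaving out each culture. Deviations of same-numbered cultures did not correlate consistently, which does not exclude a shared source, and the block was not used in the main fit.

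Genes were named if they had the 6 most negative or positive changes with at least 20 counts in every culture of a group and a call in every fit that left out 1 culture, if they had the 4 largest effects in a class or the 3 largest control changes, or if they belonged to a gene list or are named by the study. List counts without genes that passed the filter only through VWF at 3.5 h were added after seeing the data. The members and lists were chosen with earlier results of these data known.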

Additional observations from a re-analysis of the deposited data

Results flagged for a closer look

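The VWF effect differed between 3.5 h and 16 h in 1166 genes by the test of the difference itself, as described above. Besides these, 6 of 120 groups of 5 cultures examined for named genes held a culture far from the other 4, and a gap of that size arises by chance in about 1 in 20 groups. Replicate 5 of the 16 h controls was low for Hcar2, at 0.261 CPM, and for Nfkbia, at 28.3 CPM. Replicate 4 of the 16 h controls was the single culture with Il6, at 0.379 CPM, and with Nos2, at 0.0722 CPM, among controls that otherwise had 0 counts. Among VWF-treated cultures at 16 h, Ifit1 was low in replicate 5, at 89.5 CPM, and Spp1 was high in replicate 4, at 1746 CPM. What set these cultures apart was not tested.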

How the results depend on the processing

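No called change of the VWF effect took the opposite sign under the alternatives that tested it. The number of called changes was 1141 to 1197 when single cultures were left out, 1210 by DESeq2, 1268 by voom, 1265 with a filter of 10 CPM and 1146 against a tested fold of 1.5. Deviations of same-numbered cultures correlated by over 0.1 in 15 of 30 pairs (-0.68 to 0.72), which does not settle whether replicate numbers share a source. Ly6a was higher in replicates 1, 2 and 4 than in 3 and 5 in all 4 groups, and pairing was not tested further. With a replicate block 1167 changes were called, 1139 of them among the 1166, and none of the counts moved by over 1.5 times.

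Counts grew with looser filters, which test more genes. With edgeR's filterByExpr, 1972 changes were called (836 positive and 1136 negative), 2181 effects at 3.5 h and 1562 at 16 h, 1774 time changes in controls and 3601 in VWF-treated cultures. The same setting gave 489 lost and 279 kept rises, 437 lost and 162 kept falls, 157 gained rises, 325 gained falls, 770 shared time changes and 558 changes of the effect with no change in treated cultures. Without any filter the changes were 1904 (793 and 1111), the effects 2210 and 1611, and the time changes 1736 and 3791. There were then 427 lost falls, 286 kept rises, 151 kept falls, 147 gained rises, 296 gained falls, 694 shared time changes and 550 with no change in treated cultures.

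Without a fold threshold, 2819 changes were called (1378 positive and 1441 negative), 3539 effects at 3.5 h and 2712 at 16 h, and 4302 and 5315 time changes. The classes then held 568 lost and 330 kept rises, 644 lost and 386 kept falls, 287 gained rises, 302 gained falls and 1994 shared time changes. Scaling by library size alone gave 105 kept falls against 68. The 16 h controls limit the precision of Il6, Nos2 and Il12b, since these genes had few or no counts there.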

Other observations

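Outside the functions described above, 5 of 8 circadian clock genes tested were lower with VWF at 3.5 h and 1 was higher (all genes: 5.83% and 8.56%). Of the 5 falls, 1 was kept, 1 was unresolved and 3 were lost: Per1, encoding a repressor of the clock (-2.19 to -0.33), Dbp (-1.36 to 0.89) and Tef (-1.15 to 0.44), both encoding PAR bZIP factors. Nfil3, encoding a factor that competes with them for the same sites, had a turned rise (1.54 to -1.97).

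Of 21 cholesterol synthesis genes 3 had a called change, each positive, beside 13.5% of all genes, among them the lost fall of Dhcr7, encoding the last reductase of the pathway (-1.15 to 0.28). Of 10 fatty acid genes 3 were called, and 2 without replicate 5 of the 16 h controls. Scd2, encoding a stearoyl-CoA desaturase, had a turned fall (-1.93 to 1.26), and Acsl3, encoding an acyl-CoA synthetase, a lost fall (-1.92 to 0.20). Among 12 metal handling genes, Mt1, encoding a metallothionein, had a gained fall (-2.68 at 16 h), and Hp, encoding haptoglobin, an increased rise (3.13 to 5.49).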
